A study of Mus musculus with 8 samples.

Results

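The transcription factor NRF2 (gene Nfe2l2), its inhibitor KEAP1 and 8 genes that NRF2 is known to activate were followed in whole mouse lung after mepenzolate. The 10 genes were taken by name from the array's annotation, using probes with exactly 1 gene symbol, and each had 1 such probe. They are 10 of 19937 genes with such a probe, and all 10 were among the 14953 genes bright enough to be tested. Mepenzolate, a blocker of muscarinic acetylcholine receptors, was given in phosphate-buffered saline through the trachea with a micropipette, under chloral hydrate anaesthesia (500 mg/kg). Total RNA of lung tissue was hybridised to Affymetrix gene arrays from 4 groups of 2 arrays: mepenzolate at 25 h, vehicle at 25 h, mepenzolate at 7 h and vehicle at 7 h. The labels name no injury, allele or other agent in any group, and the strain, age, sex, mepenzolate dose and clock time of sampling are not given in the sources used here. The anaesthesia is recorded for all 8 samples, vehicle included, while how the vehicle itself was given is not described separately. Whether the 2 arrays of a group are different animals is not stated in the labels; p-values therefore cover only the variation among these 8 samples, part of which may be technical. The question behind the arrays was by which route mepenzolate reduces inflammation and oxidative stress.

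NRF2 is a transcription factor that KEAP1, an adaptor of a ubiquitin ligase, marks for destruction in unstressed cells. Oxidants and electrophiles modify KEAP1, NRF2 then accumulates, pairs with small MAF proteins and binds antioxidant response elements in DNA, and genes for glutathione synthesis, thioredoxin recycling and detoxification are switched on. This control acts mainly on NRF2 protein, so the readout of the pathway in RNA is the level of its targets rather than that of Nfe2l2 itself. In the lung the pathway protects the epithelium against smoke and other oxidants.

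No member passed the test in any comparison. By limma with Benjamini-Hochberg adjustment over all genes tested, 0 of 10 members had an adjusted p under 0.05 for mepenzolate against vehicle at 25 h (background over all genes 0%), at 7 h (0%), for the change of that effect between the times (0%), for 25 h against 7 h in mepenzolate lungs (0.0268%) or for 25 h against 7 h in vehicle lungs (0.0869%). At an unadjusted p under 0.05, 1 of 10 members was past the threshold at 25 h, against 4.01% of all genes, and 1 of 10 at 7 h, against 2.39%. In both it was Ephx1, which was also the 1 of 10 for the change of the effect between the times (2.68% of all genes). For 25 h against 7 h it was Srxn1 in mepenzolate lungs (6.37%), and Nqo1 and Ephx1 in vehicle lungs (5.74%). The levels below are log2 values summarised by the authors with RMA, and the differences are differences of those values, so 1 unit is a doubling. The median gap between the 2 arrays of a group, over all genes tested, was 0.120 in mepenzolate lungs at 25 h, 0.0714 in vehicle lungs at 25 h, 0.139 in mepenzolate lungs at 7 h and 0.0878 in vehicle lungs at 7 h. Most member differences were of that size.

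**Figure D1:**
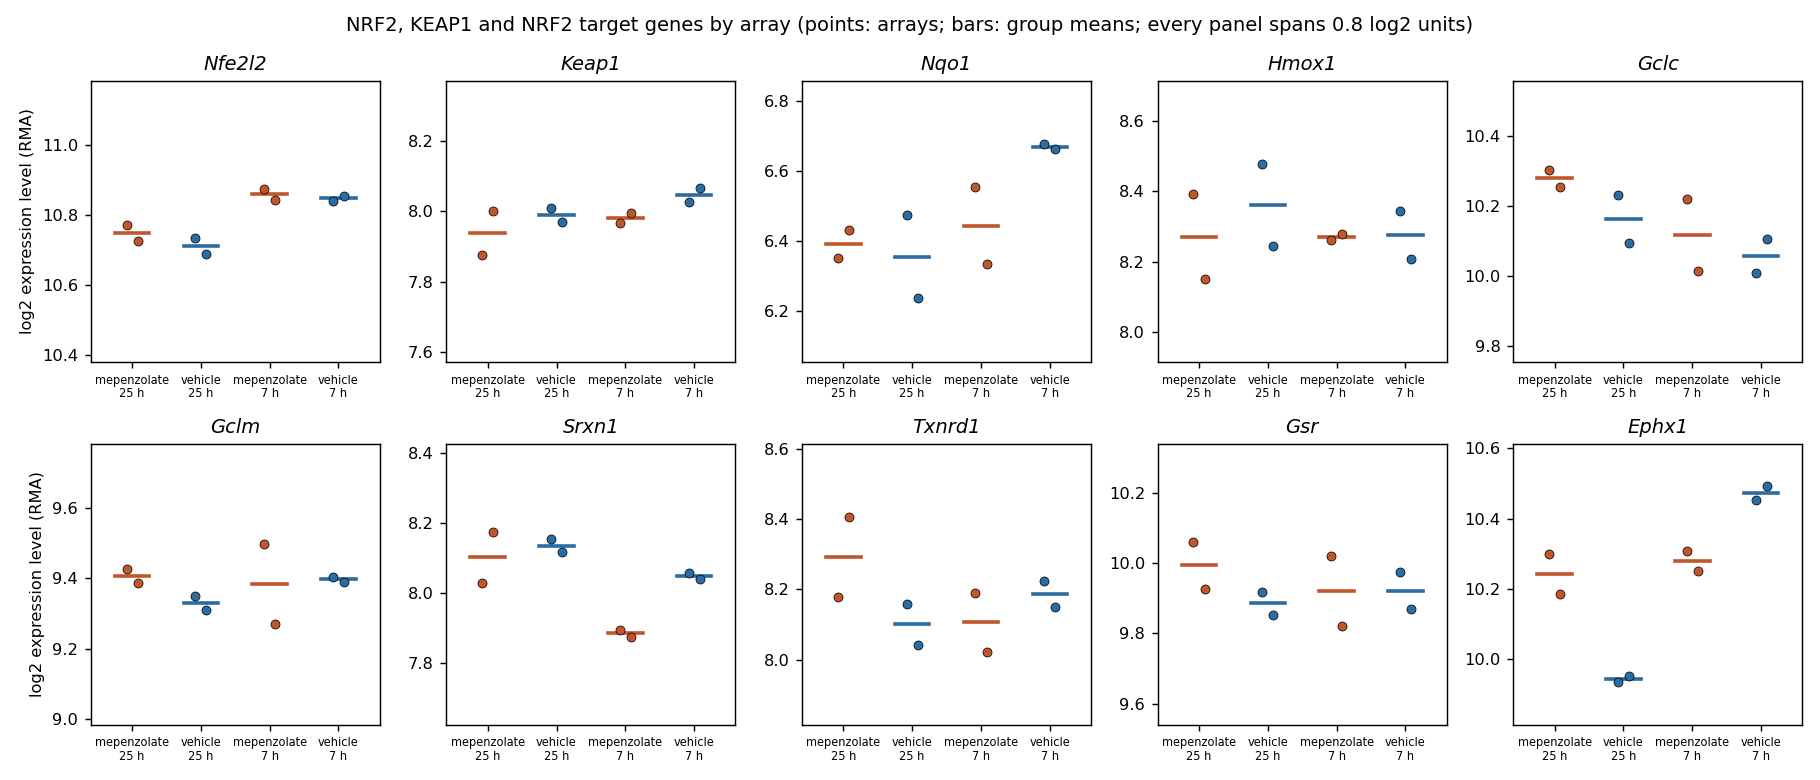
Log2 RMA expression level (vertical axis, 0.8 units in every panel) of the 10 genes on each of the 8 arrays, by group, with points for arrays and bars for group means of 2 arrays. Nfe2l2 is lower on all 4 arrays at 25 h than on all 4 at 7 h, and Ephx1 is lowest in vehicle at 25 h (9.93 and 9.95) and highest in vehicle at 7 h (10.45 and 10.49).

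Markers of the labelled tissue were bright. The surfactant gene Sftpc of alveolar type 2 cells averaged 13.52, the club cell gene Scgb1a1 13.30, the alveolar type 1 gene Ager 12.42 and the endothelial gene Cdh5 12.39. Marker lists were summed up as the mean deviation of their genes from the gene's mean over 8 arrays. For 8 of 8 measured club cell markers this score was -0.08 and 0.01 in mepenzolate lungs at 25 h, 0.04 and -0.04 in vehicle lungs at 25 h, 0.01 and -0.65 in mepenzolate lungs at 7 h, and 0.28 and 0.44 in vehicle lungs at 7 h. On the second mepenzolate array at 7 h the club genes were uneven. Ltf was at 6.42 (mean 8.04) and Bpifa1 at 9.32 (mean 10.58), while Scgb1a1 was at 13.30 (mean 13.30). The other club genes were also below their means there. This array also had the lowest score for 6 ciliated cell markers (-0.47, against -0.12 to 0.22 on the other arrays) and the highest for 6 liver markers (0.81, against -0.22 to -0.04). Counts of members and lists higher and lower at 7 h are therefore given with and without it. Counts of genes without overlap are given for all arrays only. The score of 6 neutrophil markers was -0.14 and 0.07 in mepenzolate lungs and 0.31 and 0.04 in vehicle lungs at 25 h, and 0.05 and 0.16 in mepenzolate lungs and -0.04 and -0.45 in vehicle lungs at 7 h. That of 6 cardiac muscle markers was 0.19 and -0.02 in mepenzolate lungs and -0.10 and 0.39 in vehicle lungs at 25 h, and -0.34 and -0.25 in mepenzolate lungs and 0.10 and 0.03 in vehicle lungs at 7 h. The part of these scores in the members' values was not tested. The scores of alveolar type 2, alveolar type 1 and endothelial markers stayed between -0.13 and 0.11 on every array. In whole lung RNA, fewer cells of a type and less RNA per cell cannot be told apart.

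Nfe2l2 and Keap1 come first as the regulator and its inhibitor. Nfe2l2 (chromosome 2, 75675513 to 75704663, GRCm38.p6) was among the brightest genes, with a mean level of 10.79, above 97.5% of the genes measured. It stood at 10.77 and 10.72 in mepenzolate lungs and 10.73 and 10.69 in vehicle lungs at 25 h, and at 10.87 and 10.84 in mepenzolate lungs and 10.84 and 10.85 in vehicle lungs at 7 h. Mepenzolate and vehicle arrays overlapped at both times, and the 4 arrays at 25 h lay below the 4 at 7 h. The mepenzolate minus vehicle difference was 0.04 ± 0.07 at 25 h and 0.01 ± 0.07 at 7 h (log2 ± SE, n = 2 per group). Its 95% intervals ran from -0.13 to 0.20 at 25 h and from -0.16 to 0.18 at 7 h.

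The later arrays of Nfe2l2 were 0.11 ± 0.07 lower than the earlier ones in mepenzolate lungs (difference -0.11, adjusted p = 0.924, limma) and 0.14 ± 0.07 lower in vehicle lungs (difference -0.14, adjusted p = 0.913). Over both treatments together, a contrast added after the values were seen, the difference between 25 h and 7 h was -0.12 ± 0.05 with an adjusted p of 0.524 by limma. The exact two-sided permutation test of the 4 arrays at 25 h against the 4 at 7 h gave p = 0.0286, the smallest p that this design allows, with no correction for the 10 members looked at. Of all genes tested, 6.69% were likewise separated without overlap between the times, 4.15% with the lower values at 25 h. Nfe2l2 was the only member so separated.

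The genes whose levels over the 8 arrays were most like those of Nfe2l2 were Per2 (Pearson r = 0.984), Per3 (0.983) and Prrg3 (0.979), out of 14952 other genes ranked. Per2 and Per3 encode period proteins, repressors of the circadian clock. The 8 arrays fall into 2 times, and in each of these genes the arrays of the 2 times do not overlap, so r describes mainly that split. The size of the difference was not alike. Per2 stood at 7.60 and 7.29 in mepenzolate lungs and 7.29 and 7.13 in vehicle lungs at 25 h, and at 8.60 and 8.50 in mepenzolate lungs and 8.54 and 8.66 in vehicle lungs at 7 h. Over both treatments Per2 was lower at 25 h by a log2 difference of -1.25 ± 0.08 (adjusted p = 0.00255, limma), and Per3 by -1.20 ± 0.11 (adjusted p = 0.00599). Both passed the test, as did 33 genes or 0.221% of those tested, of which 27 were lower at 25 h. Prrg3 had -0.38 ± 0.06 and an adjusted p of 0.0865. The Nfe2l2 difference was thus far smaller than that of Per2 on the same log2 scale.

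**Figure D2:**
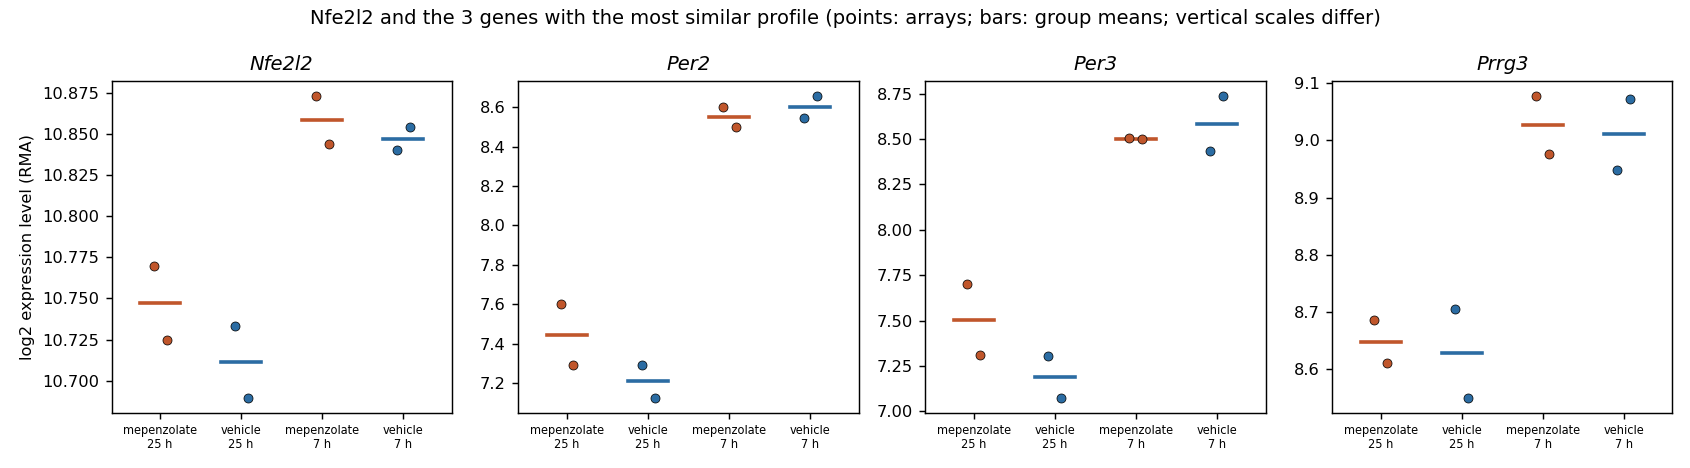
Log2 RMA expression level of Nfe2l2 and of the 3 genes with the most similar profile over the 8 arrays (points: arrays; bars: group means of 2), each panel on a vertical scale of its own. In every panel the 4 arrays at 25 h lie below the 4 at 7 h, over a range of 0.18 log2 units for Nfe2l2 and 1.53 for Per2.

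Keap1 (chromosome 9, 21229730 to 21239332) had a mean level of 7.99. It stood at 7.88 and 8.0 in mepenzolate lungs and 8.01 and 7.97 in vehicle lungs at 25 h, and at 7.97 and 8.0 in mepenzolate lungs and 8.03 and 8.07 in vehicle lungs at 7 h. The groups overlapped at 25 h, and at 7 h both mepenzolate arrays were below both vehicle arrays. The differences were -0.05 ± 0.08 at 25 h and -0.07 ± 0.08 at 7 h, each smaller than its standard error. The 95% intervals ran from -0.23 to 0.13 at 25 h and from -0.25 to 0.11 at 7 h.

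The core of the antioxidant response element, which NRF2 binds with a small MAF partner, is TGACNNNGC or TGAGNNNGC, where N is any base. Both were searched on both strands in the 250 bases before the start of each member's RefSeq transcripts (GRCm38.p6). Of the members, 7 had such a window, 9 windows in all, 3 of them of Txnrd1. Gclc, Gsr and Hmox1 had none. A core was found in the windows of Nfe2l2, Srxn1, Gclm and Txnrd1, while those of Keap1, Nqo1 and Ephx1 held no match. Over all 32851 windows of mouse genes, 10.2% held TGACNNNGC, 14.4% held TGAGNNNGC and 23% held either, so a match is common and is a description of the letters, not a site. The windows of Nfe2l2, Srxn1 and Ephx1 are shown, the first as the regulator itself, the second because it holds a match on each strand, and the third because its difference at 25 h was the largest of the members. Capitals mark the core, written on the gene's strand from 5′ to 3′. In Nfe2l2 it begins 240 bases before the start (chr2:75704664-75704913, minus strand). In Srxn1 (chr2:152105274-152105523, plus strand) the match beginning 158 bases before the start reads TGAGTCGGC on the opposite strand, and the match beginning 45 bases before the start is TGAGTCAGC. The Ephx1 window is chr1:181017570-181017819, minus strand.
Nfe2l2: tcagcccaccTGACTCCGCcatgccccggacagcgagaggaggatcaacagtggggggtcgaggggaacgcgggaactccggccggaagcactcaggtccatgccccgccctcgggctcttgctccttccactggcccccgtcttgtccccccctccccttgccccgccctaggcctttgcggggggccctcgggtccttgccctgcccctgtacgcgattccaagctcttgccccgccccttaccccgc
Srxn1: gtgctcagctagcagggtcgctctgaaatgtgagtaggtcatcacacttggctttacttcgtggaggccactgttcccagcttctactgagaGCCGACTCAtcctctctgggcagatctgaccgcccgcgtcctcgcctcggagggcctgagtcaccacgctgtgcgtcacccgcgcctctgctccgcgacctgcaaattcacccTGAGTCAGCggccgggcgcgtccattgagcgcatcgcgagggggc
Ephx1: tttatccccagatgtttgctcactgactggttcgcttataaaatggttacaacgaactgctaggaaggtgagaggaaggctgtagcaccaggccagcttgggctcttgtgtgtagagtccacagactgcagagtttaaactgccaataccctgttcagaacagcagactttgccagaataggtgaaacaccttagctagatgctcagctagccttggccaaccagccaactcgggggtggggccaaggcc
The Gclm match reads TGACGGTGC on the opposite strand, beginning 134 bases before the start, and the Txnrd1 match reads TGACAAAGC on the opposite strand, beginning 92 bases before 1 of its 3 starts. The E-box CACGTG, the element that clock factors bind, was in 6.02% of all windows and in none of the 9 member windows, Nfe2l2 included. At that share few matches would be found in 9 windows of any genes, so their absence says little. Only these exact letters in the 250 bases were searched, and E-boxes elsewhere or of other spelling were not looked for.

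Ephx1 and Nqo1 are the detoxification enzymes among the members. Ephx1 (chromosome 1, 180989556 to 181017569) encodes microsomal epoxide hydrolase, which turns reactive epoxides into diols, and of the 10 genes it had the largest mepenzolate minus vehicle difference at 25 h, the largest time difference in vehicle lungs and the largest change of the mepenzolate effect between the times. At 7 h the difference of Nqo1 was larger. At 25 h Ephx1 stood at 10.30 and 10.18 in mepenzolate lungs, against 9.93 and 9.95 in vehicle lungs. At 7 h the order was the other way round, with 10.31 and 10.25 in mepenzolate lungs, against 10.45 and 10.49 in vehicle lungs. The mepenzolate arrays of the 2 times overlapped, while the vehicle arrays were the lowest of all at 25 h and the highest of all at 7 h.

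The mepenzolate minus vehicle difference of Ephx1 was 0.30 ± 0.08 at 25 h (1.23-fold, 95% interval 0.12 to 0.48, adjusted p = 0.979, limma) and -0.19 ± 0.08 at 7 h (0.875-fold, interval -0.37 to -0.01, adjusted p = 1.00). The effect at 25 h exceeded that at 7 h by 0.49 ± 0.11 (adjusted p = 1.00). In size relative to its error this ranked above 99.7% of all genes tested at 25 h and above 98.2% at 7 h, and still did not pass after adjustment. 25 h minus 7 h was -0.53 ± 0.08 in vehicle lungs (0.693-fold, adjusted p = 0.1002) and -0.04 ± 0.08 in mepenzolate lungs (adjusted p = 0.996). The vehicle time difference had an adjusted p of 0.0406 when genes below the median level were left out, 0.0165 with an intensity trend and robust estimation, and 0.0147 with array weights, so its call depends on the setting. The score of the club list moved in the same direction in vehicle lungs (0.04 and -0.04 at 25 h, 0.28 and 0.44 at 7 h). It rose most through Bpifa1, with group means of 10.06 at 25 h and 11.73 at 7 h. Scgb1a1 (13.28 and 13.25) and Scgb3a2 (9.81 and 9.72) went the other way. The score's part in the Ephx1 difference was not tested.

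Nqo1 (chromosome 8, 107388225 to 107403205), the quinone reductase NQO1 that is the most used readout of NRF2 activity, was the dimmest member, with a mean of 6.47, above 34.9% of the genes measured. It stood at 6.35 and 6.43 in mepenzolate lungs and 6.48 and 6.24 in vehicle lungs at 25 h. At 7 h it stood at 6.55 and 6.33 in mepenzolate lungs, against 6.68 and 6.66 in vehicle lungs. The groups overlapped at 25 h, and at 7 h the mepenzolate arrays lay below the vehicle arrays. The differences were 0.04 ± 0.11 at 25 h and -0.23 ± 0.11 at 7 h (adjusted p = 1.00). Of the 2 mepenzolate arrays at 7 h, the first alone gave -0.12 and the second alone -0.34. In vehicle lungs 25 h minus 7 h was -0.31 ± 0.11 (adjusted p = 0.733, limma), and -0.19 without the second array at 25 h. As with Ephx1, vehicle at 7 h was the group with the highest level, here by more than the gap between its own arrays, which was 0.0131.

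Hmox1 (chromosome 8, 75093618 to 75100593) encodes haem oxygenase 1, which degrades haem to biliverdin, iron and carbon monoxide and is induced by oxidants and by haem itself. It stood at 8.39 and 8.15 in mepenzolate lungs and 8.48 and 8.24 in vehicle lungs at 25 h, and at 8.26 and 8.28 in mepenzolate lungs and 8.34 and 8.21 in vehicle lungs at 7 h. All groups overlapped. The differences were -0.09 ± 0.11 at 25 h and -0.01 ± 0.11 at 7 h, and the 95% intervals, -0.35 to 0.18 and -0.27 to 0.26, leave out a change as large as those seen for Per2. At 25 h the gap between the 2 arrays of a group was 0.243 in mepenzolate lungs and 0.235 in vehicle lungs, larger than the difference between the groups. The genes most like Hmox1 over the 8 arrays were Tbxas1, the thromboxane synthase gene (Pearson r = 0.945), Arid1b, a chromatin remodelling subunit (0.913), and Sdc1, the proteoglycan syndecan 1 (0.909), over ranges of 0.27, 0.16 and 0.15 log2 units.

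Gclc, Gclm and Gsr serve glutathione, the main soluble antioxidant of the cell. Gclc and Gclm encode the catalytic and the modifier subunit of glutamate-cysteine ligase, the rate-limiting enzyme of its synthesis, and Gsr encodes glutathione reductase, which recycles its oxidised form. At 25 h all 3 were higher on both mepenzolate arrays than on both vehicle arrays, by differences near the gap between arrays. Gclc (chromosome 9, 77754535 to 77794489) stood at 10.30 and 10.25 in mepenzolate lungs, against 10.23 and 10.09 in vehicle lungs, a difference of 0.12 ± 0.10. Gclm (chromosome 3, 122245487 to 122267215) stood at 9.43 and 9.39 in mepenzolate lungs, against 9.35 and 9.31 in vehicle lungs, a difference of 0.08 ± 0.09. Gsr (chromosome 8, 33653238 to 33698162) stood at 10.06 and 9.93 in mepenzolate lungs, against 9.92 and 9.85 in vehicle lungs, a difference of 0.11 ± 0.10. The adjusted p was 0.979 for each. With 1 array left out in turn these differences ran from 0.047 to 0.18 for Gclc, lowest without the second vehicle array, and from 0.041 to 0.17 for Gsr, lowest without the first mepenzolate array.

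At 7 h the glutathione genes overlapped between the treatments. Gclc stood at 10.22 and 10.02 in mepenzolate lungs and 10.01 and 10.11 in vehicle lungs, a difference of 0.06 ± 0.10. Gclm stood at 9.50 and 9.27 in mepenzolate lungs and 9.40 and 9.39 in vehicle lungs, a difference of -0.01 ± 0.09. Gsr stood at 10.02 and 9.82 in mepenzolate lungs and 9.97 and 9.87 in vehicle lungs, a difference of 0.00 ± 0.10. In all 3 the second mepenzolate array was the lower, by 0.200 to 0.228, more than the gap of 66% to 72% of all genes between these arrays. Among the 45 pairs of members, Gclm and Gsr had the highest correlation over the 8 arrays (Pearson r = 0.849) and Nfe2l2 and Srxn1 the lowest (-0.789). The median over pairs was 0.172, with 27 pairs above 0. These pairs share the same 8 arrays, and r is given as a description.

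Txnrd1 and Srxn1 serve the thiol redox system: Txnrd1 encodes thioredoxin reductase 1, which keeps thioredoxin reduced, and Srxn1 encodes sulfiredoxin, which repairs overoxidised peroxiredoxins. Txnrd1 (chromosome 10, 82833951 to 82897724) stood at 8.18 and 8.41 in mepenzolate lungs, against 8.16 and 8.04 in vehicle lungs at 25 h. At 7 h it stood at 8.19 and 8.02 in mepenzolate lungs and 8.22 and 8.15 in vehicle lungs. The groups did not overlap at 25 h, by a margin of 0.02, and overlapped at 7 h. The differences were 0.19 ± 0.11 and -0.08 ± 0.11, with adjusted p = 0.979 and 1.00. Of the 2 mepenzolate arrays at 25 h, the first alone gave a difference of 0.077 and the second alone 0.31.

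Srxn1 (chromosome 2, 152105524 to 152111376) had its lowest level in mepenzolate lungs at 7 h. It stood at 8.03 and 8.17 in mepenzolate lungs and 8.15 and 8.12 in vehicle lungs at 25 h, and at 7.90 and 7.88 in mepenzolate lungs, against 8.06 and 8.04 in vehicle lungs, at 7 h. The treatments overlapped at 25 h, with a difference of -0.03 ± 0.08, and did not at 7 h, with a difference of -0.16 ± 0.08 (adjusted p = 1.00). Both times were apart in each treatment, with 25 h minus 7 h at 0.22 ± 0.08 in mepenzolate lungs (adjusted p = 0.684) and 0.09 ± 0.08 in vehicle lungs (adjusted p = 0.971). Its direction over time was opposite to that of Nfe2l2, Nqo1 and Ephx1.

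Across the members, 7 of 10 were higher and 3 lower in mepenzolate than in vehicle lungs at 25 h, with a median log2 difference of 0.056, beside -0.023 over all genes tested, of which 41.3% were higher. At 25 h 5 of 10 members (Gclc, Gclm, Txnrd1, Gsr and Ephx1) were higher on both mepenzolate arrays than on both vehicle arrays, beside 14.2% of all genes, and 0 of 10 were lower on both, beside 22.4%. The nearest arrays were close for Gsr (9.927 against 9.918), Txnrd1 (8.178 against 8.158), Gclc (10.254 against 10.231) and Gclm (9.386 against 9.349). They were further apart for Ephx1 (10.184 against 9.951). Leaving out each array in turn gave between 6 and 9 members higher. At 7 h 2 of 10 were higher and 8 lower, with a median of -0.040, beside -0.013 over all genes, of which 43.6% were higher. At 7 h 4 of 10 (Keap1, Nqo1, Srxn1 and Ephx1) were lower without overlap, beside 15.5% of all genes. Without the second mepenzolate array at 7 h, 5 were higher and 5 lower, with a median of -0.006, and with quantile normalization 4 were higher and 6 lower. The counts without overlap were not repeated with that array left out. The counts at the 2 times share no arrays.

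**Figure D3:**
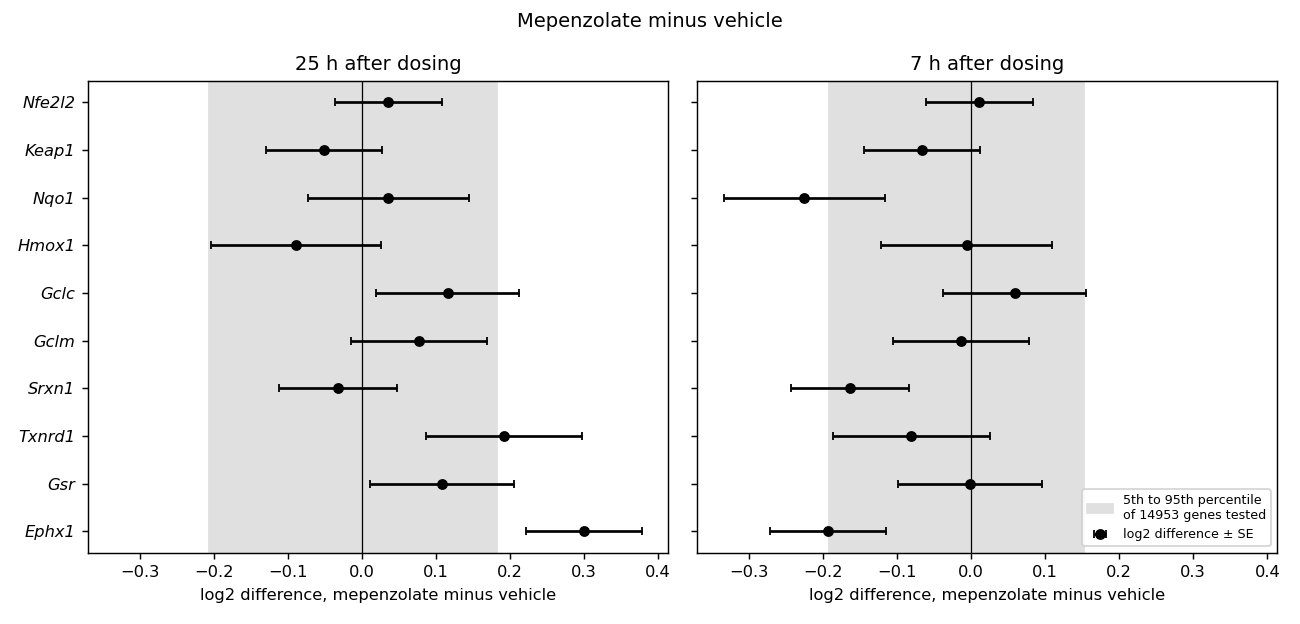
Log2 difference, mepenzolate minus vehicle (horizontal axis), of the 10 genes at 25 h and at 7 h, with points for differences of 2 against 2 arrays and bars for standard errors. The grey band holds the 5th to the 95th percentile of all genes tested; Ephx1 and Txnrd1 lie above it at 25 h (0.30 and 0.19), and Nqo1 and Ephx1 lie below it at 7 h (-0.23 and -0.19).

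Over the 8 target genes, each array's mean deviation was small. It was 0.046 and 0.031 in mepenzolate lungs at 25 h, 0.0031 and -0.103 in vehicle lungs at 25 h, 0.034 and -0.101 in mepenzolate lungs at 7 h, and 0.059 and 0.031 in vehicle lungs at 7 h. The low arrays were the second vehicle array at 25 h and the second mepenzolate array at 7 h, with 1 of 8 targets above its own mean on each. Both have a partner array in the same group at or above 0, so single arrays differed as much as the groups did.

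With time, 7 of 10 members were lower and 3 higher at 25 h than at 7 h in vehicle lungs (median -0.063, beside -0.0002 over all genes, of which 49.9% were higher). Of these, 5 (Nfe2l2, Keap1, Nqo1, Gclm and Ephx1) were lower without overlap, beside 22.2% of all genes, and 1 (Srxn1) was higher, beside 20.9%. In mepenzolate lungs 6 were higher and 4 lower (median 0.012, beside -0.005 over all genes, of which 47.9% were higher), and 4 higher and 6 lower without the second array at 7 h (median -0.027). Of these, 2 (Gclc and Srxn1) were higher without overlap, beside 12.5% of all genes, and 1 (Nfe2l2) was lower, beside 15.2%. The mepenzolate effect was larger at 25 h than at 7 h in 9 of 10 members, Hmox1 being the exception, beside 48.3% of all genes, with a median difference of effects of 0.0998, and in 7 of 10 without the second mepenzolate array at 7 h, with a median of 0.020. None of the 10 differences of effects passed, the lowest adjusted p being 1.00.

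**Figure D4:**
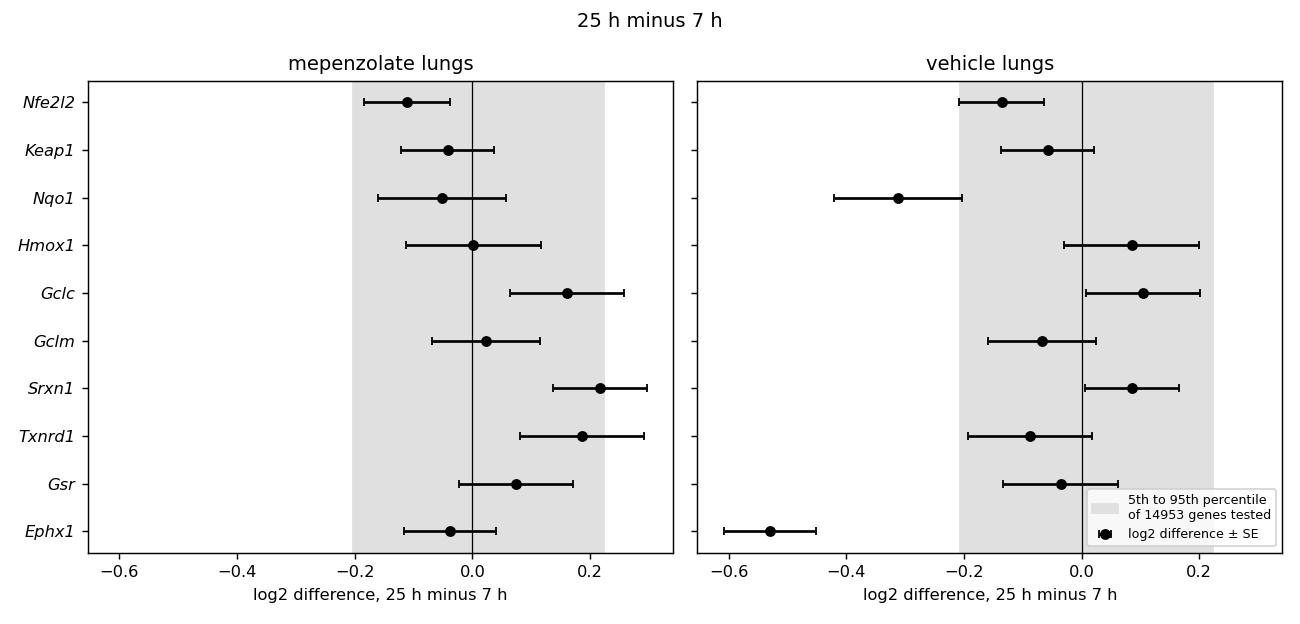
Log2 difference, 25 h minus 7 h (horizontal axis), of the 10 genes in mepenzolate lungs and in vehicle lungs, with points for differences of 2 against 2 arrays, bars for standard errors and a grey band for the 5th to 95th percentile of all genes tested. Ephx1 (-0.53) and Nqo1 (-0.31) are the lowest in vehicle lungs, and Srxn1 (0.22) is the highest in mepenzolate lungs.

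Other genes of the pathway were counted from 6 lists, and 0 genes of any list passed limma in either mepenzolate comparison. Of 16 tested partners and regulators of NRF2, 9 were higher and 7 lower in mepenzolate lungs at 25 h (median 0.010), and 3 were higher and 13 lower at 7 h (median -0.043). The count at 7 h was 7 higher and 9 lower without the second mepenzolate array (median -0.005). The small MAF gene Maff, whose product pairs with NRF2, was at 6.81 and 6.83 in mepenzolate lungs, against 6.65 and 6.69 in vehicle lungs at 25 h (0.15 ± 0.11), and had -0.18 ± 0.11 at 7 h. Bach1, a repressor that competes with NRF2 for the same elements, had -0.11 ± 0.08 at 7 h, with both mepenzolate arrays below both vehicle arrays. Cul3, the scaffold of the ligase that KEAP1 serves, had 0.03 ± 0.07 at 7 h.

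Of 14 tested glutathione genes, 7 were higher and 7 lower at 25 h (median -0.0005), and 6 were higher and 8 lower at 7 h (median -0.052). Without the second mepenzolate array at 7 h, 8 were higher and 6 lower there (median 0.012), and without the first mepenzolate array at 25 h, 3 were higher and 11 lower at 25 h (median -0.022). Ggt5, a glutamyl transferase that cleaves glutathione conjugates, had the lowest mepenzolate minus vehicle difference of these at 25 h. It stood at 6.72 and 6.52 in mepenzolate lungs, against 7.04 and 6.80 in vehicle lungs (-0.30 ± 0.11, adjusted p = 0.979, limma). Of 12 thioredoxin and peroxiredoxin genes, 8 were higher and 4 lower at 25 h (median 0.020), and 3 were higher and 9 lower at 7 h (median -0.053). The count at 7 h was 8 higher and 4 lower without the second mepenzolate array (median 0.035). With each array left out in turn, between 5 and 8 of these were higher at 25 h, with medians from -0.002 to 0.048. Prdx1, a peroxiredoxin that breaks down hydrogen peroxide, had the highest mepenzolate minus vehicle difference of these at 25 h. It stood at 11.36 and 11.56 in mepenzolate lungs, against 11.10 and 11.05 in vehicle lungs. Its difference was 0.38 ± 0.09 at 25 h (adjusted p = 0.979) and 0.03 ± 0.09 at 7 h. Prdx1 was a bright gene whose groups were clearly apart at 25 h and still did not pass over 14953 genes.

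Of 9 tested genes of NADPH supply, which feeds both the glutathione and the thioredoxin system, 5 were higher and 4 lower at 25 h (median 0.028), and 1 was higher and 8 lower at 7 h (median -0.104). Without the second mepenzolate array at 7 h, 3 were higher and 6 lower there (median -0.011), and without the first mepenzolate array at 25 h, 4 were higher and 5 lower at 25 h (median -0.010). Me1, malic enzyme 1, had 0.18 ± 0.10 and Mthfd2, a mitochondrial folate enzyme, 0.30 ± 0.15 at 25 h, both without overlap. Of 14 haem and iron genes, 8 were higher and 6 lower at 25 h (median 0.012), and 6 were higher and 8 lower at 7 h (median -0.002). Without the same 2 arrays the counts were 8 higher and 6 lower at 7 h (median 0.024), and 6 higher and 8 lower at 25 h (median -0.018). Alas1, the rate-limiting enzyme of haem synthesis, stood at 10.59 and 10.54 in mepenzolate lungs, against 10.51 and 10.28 in vehicle lungs at 25 h (0.17 ± 0.10). At 7 h it stood at 10.85 and 10.71 in mepenzolate lungs and 10.90 and 10.83 in vehicle lungs. Like Ephx1, it was lowest in vehicle at 25 h, with 25 h minus 7 h at -0.47 ± 0.10 in vehicle lungs (adjusted p = 0.314, limma). Unlike Ephx1, it was also lower without overlap at 25 h in mepenzolate lungs (-0.22 ± 0.10, adjusted p = 0.808).

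The list of other detoxification and export genes known as NRF2 targets had the largest median differences of the 6 lists. Of its 22 tested genes, 19 were higher and 3 lower in mepenzolate lungs at 25 h (median 0.141, beside -0.023 over all genes), 8 of them without overlap, beside 14.2% of all genes. At 7 h 3 were higher and 19 lower (median -0.115, beside -0.013), 11 of them lower without overlap, beside 15.5% of all genes. Without the second mepenzolate array at 7 h, which had the low club and ciliated scores, the count at 7 h was 10 higher and 12 lower, with a median of -0.066. The count without overlap was not repeated with that array left out. Without the second vehicle array at 25 h, the count at 25 h was 14 higher and 8 lower, with a median of 0.062, and without the second mepenzolate array at 25 h 17 higher and 5 lower, with a median of 0.058. The direction over time was opposite in the treatments, with 20 of 22 genes higher at 25 h than at 7 h in mepenzolate lungs and 20 of 22 lower in vehicle lungs. Without the second mepenzolate array at 7 h, 12 of 22 were higher in mepenzolate lungs. Without the second vehicle array at 25 h, 14 of 22 were lower in vehicle lungs.

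Aldh3a1, an aldehyde dehydrogenase of airway epithelium, stood at 7.86 and 8.02 in mepenzolate lungs, against 7.85 and 7.58 in vehicle lungs at 25 h (0.23 ± 0.17). At 7 h it stood at 7.62 and 7.33 in mepenzolate lungs, against 8.38 and 7.96 in vehicle lungs (-0.70 ± 0.17, adjusted p = 1.00). Ces1g, a carboxylesterase, stood at 7.76 and 7.46 in mepenzolate lungs, against 7.12 and 7.20 in vehicle lungs at 25 h (0.45 ± 0.13). At 7 h Ces1g stood at 7.30 and 7.12 in mepenzolate lungs, against 7.77 and 7.50 in vehicle lungs (-0.42 ± 0.13). Like Ephx1, both were above vehicle without overlap at 25 h and below it without overlap at 7 h. For Aldh3a1 the margin at 25 h was small, 7.863 against 7.854. Gstp1, a glutathione transferase, went the other way at 7 h, with 11.28 and 11.01 in mepenzolate lungs, against 10.42 and 11.09 in vehicle lungs (0.39 ± 0.21). Osgin1 had 0.12 ± 0.10 at 7 h, and both genes overlapped between the treatments. At 25 h Abcc4 had -0.07 ± 0.09 and Akr1b10 -0.02 ± 0.08. Gsta4, a glutathione transferase for lipid aldehydes, stood at 10.04 and 10.21 in mepenzolate lungs, against 9.88 and 9.57 in vehicle lungs at 25 h (0.40 ± 0.14), and had -0.03 ± 0.14 at 7 h. The club cell scores at 7 h, 0.01 and -0.65 in mepenzolate lungs against 0.28 and 0.44 in vehicle lungs, lay in the same direction as the list at 7 h. Of the club genes, Bpifa1 (group means 10.31 against 11.73) and Ltf (7.19 against 8.59) were lower by most, and only Scgb1a1 (13.28 against 13.25) was not lower. At 25 h the club cell scores were -0.08 and 0.01 in mepenzolate lungs against 0.04 and -0.04 in vehicle lungs, where the list's median was 0.141. The scores' part in the list's values was not tested.

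**Figure D5:**
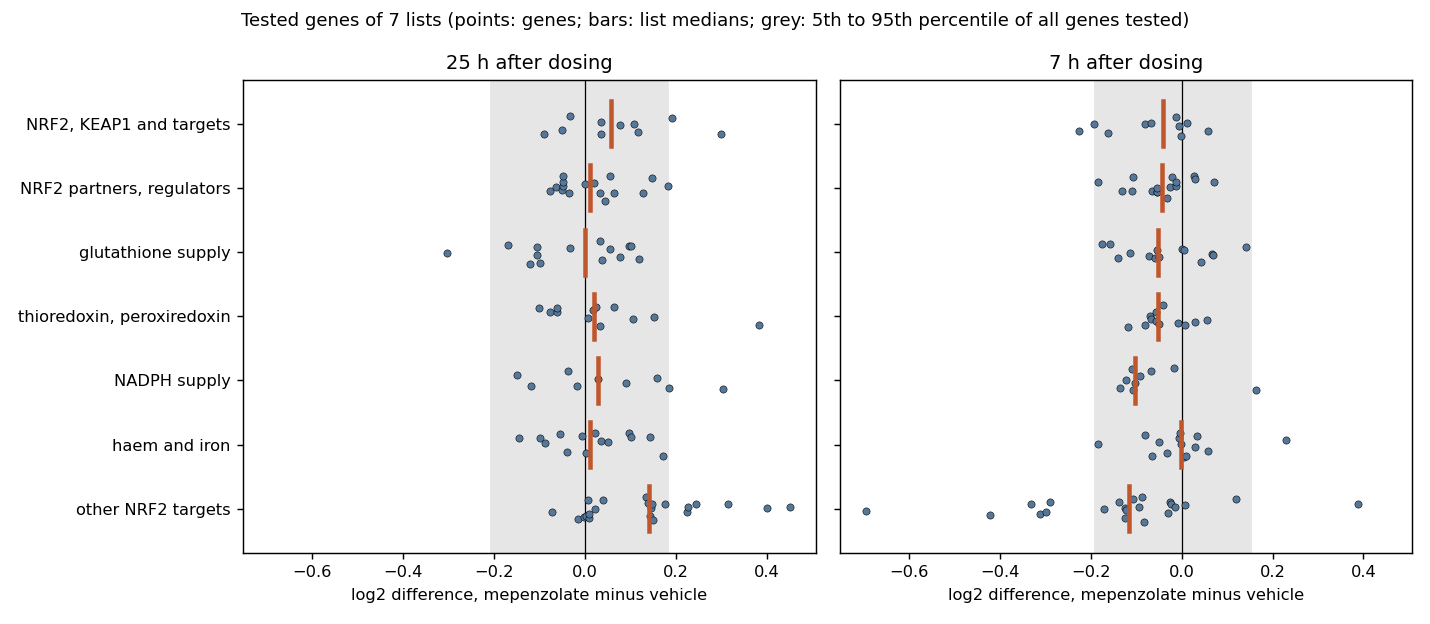
Log2 difference, mepenzolate minus vehicle (horizontal axis), of the tested genes of the 10-gene set and of 6 further lists at 25 h and at 7 h, with points for genes, bars for list medians and a grey band for the 5th to 95th percentile of all genes tested. The other NRF2 targets have a median of 0.141 at 25 h and -0.115 at 7 h, while the medians of the other 5 lists lie between -0.104 and 0.028.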

How the data were processed

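The log2 expression values deposited by the authors, 34760 probes on 8 arrays, are RMA (robust multi-array average) summaries, per the submitters' processing notes; its version is not given in the sources used here. The method corrects background, makes intensity distributions equal and pools the probes of a transcript, so changes of dim genes come out smaller. Array medians ran from 6.70 to 6.77. Precision is limited by the number of arrays.

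By the platform annotation 21640 probes had 1 symbol and 1321 several, with 11799 unnamed here. 21553 matched RefSeq genes of GRCm38.p6 by identifier. The brightest probe of a gene was used, giving 19937 genes. Those reaching the 25th percentile of mean level (log2 5.93) were tested, 14953 genes.

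The model (R 4.3.3, limma 3.58.1) had 1 mean for each group and a spread shared by all 8 arrays (4 residual and 4.09 prior degrees of freedom), with p-values adjusted by Benjamini-Hochberg over all genes tested. Errors are moderated standard errors. The 5 comparisons share arrays. With 2 arrays against 2, an exact permutation test cannot go below 0.333. The same test of 25 h against 7 h over both treatments was added after the values were seen. Figures used matplotlib 3.10.9. The fit was tested on simulated data. High recovery was required there only of changes larger than any member difference. The check therefore does not show whether changes of the members' size would pass.

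Groups came from the sample titles. All 10 members were named. Of each pathway list, the genes named were among the 2 highest and 2 lowest by moderated t in each mepenzolate comparison. The members and lists were chosen with earlier results of these data known. Of the lists' genes, 10 (Ggt1, Prdx5, Prdx6, G6pdx, Gsta1, Gsta2, Ugt1a6a, Ugt1a7c, Cyp2a5 and Htatip2) were not analysed here. Alternatives were a replicate block, no filter, a filter at the median, median centring, quantile normalization, array weights, robust estimation with an intensity trend, the mean of all probes, only the groups compared, and each array left out in turn.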

Additional observations from a re-analysis of the deposited data

Results flagged for a closer look

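For 4 of the genes named here the mepenzolate arrays lay above the vehicle arrays at 25 h and below them at 7 h, without overlap at either time. Among the members and list genes this held for 6 of the 97 tested, beside 1.71% of all 14953 genes tested, and 3.52% of all genes lay on opposite sides in either order. The mepenzolate effect at 25 h minus that at 7 h was 0.49 for Ephx1, 0.87 for Ces1g, 0.46 for Entpd5 and 0.92 for Aldh3a1 on the log2 scale. Each difference was tested by limma over all genes and none passed, with an adjusted p of 1.00 for each. Entpd5, a nucleotidase of the endoplasmic reticulum, had 0.15 ± 0.09 at 25 h and -0.31 ± 0.09 at 7 h. The second mepenzolate array at 7 h, which lies in all these comparisons, stood apart from the other arrays in liver markers. Its liver score was 0.81, against -0.22 to -0.04 on the others, and its Alb level 8.93, against 5.94 to 6.39. The count of 6 of 97 was not repeated without it. With each array left out in turn, the Ephx1 difference of effects ran from 0.43 to 0.55.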

How the results depend on the processing

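Of 54 member results, 32 kept their direction under every alternative run (at most 17), 22 turned when 1 array was left out and 3 under another setting. The 54 are all members in the 5 comparisons and, over both treatments, only Nfe2l2, Nqo1, Srxn1 and Ephx1. These had the lowest unadjusted p of the members over both treatments (limma), and none of their results there turned. The other members were not run there. No member passed as reported; Ephx1 between the times passed in vehicle lungs under 3 settings, as given above, and over both treatments with the intensity trend and robust estimation (adjusted p = 0.0318). Per2 and Per3 over both treatments passed under all 16 alternatives run for them, and Prrg3 under 2. The filter at the median left Nqo1 untested, and the fit on only the groups compared does not apply to the difference of effects or to both treatments, which use all 4 groups. Turned by other settings were Hmox1 and Gsr at 7 h under quantile normalization (0.012 and 0.0034), and Hmox1 between the times in mepenzolate lungs under quantile normalization (-0.0016) and median centring (-0.0027). Median centring moved the share of all genes higher in mepenzolate lungs at 25 h to 51.6%, against 41.3% as reported. For 25 h against 7 h in vehicle lungs it moved that share to 37.0%, against 49.9%, with 3 members higher and 7 lower. For the difference of effects it moved the share above 0 to 58.1%, against 48.3%, with 9 members higher and 1 lower. With each array left out in turn, mepenzolate minus vehicle at 25 h ran from -0.11 to 0.011 for Keap1, -0.084 to 0.15 for Nqo1, -0.21 to 0.032 for Hmox1 and -0.11 to 0.040 for Srxn1. At 7 h it ran from -0.0034 to 0.026 for Nfe2l2, -0.075 to 0.063 for Hmox1, -0.043 to 0.16 for Gclc, -0.13 to 0.10 for Gclm, -0.16 to 0.0035 for Txnrd1 and -0.10 to 0.099 for Gsr. The difference of effects ran from -0.047 to 0.078 for Keap1, -0.20 to 0.038 for Hmox1, -0.045 to 0.16 for Gclc and -0.024 to 0.20 for Gclm. Between the times in mepenzolate lungs it ran from -0.10 to 0.020 for Keap1, -0.16 to 0.058 for Nqo1, -0.12 to 0.12 for Hmox1, -0.091 to 0.14 for Gclm, -0.026 to 0.17 for Gsr and -0.095 to 0.021 for Ephx1, and in vehicle lungs from -0.033 to 0.20 for Hmox1 and -0.088 to 0.017 for Gsr. Over all genes the calls were 0 to 1 at 25 h, 0 to 2 at 7 h, 0 to 2 for the difference of effects, 0 to 2 (4 as reported) between the times in mepenzolate lungs, 0 to 14 (13 as reported) in vehicle lungs and 11 to 34 (33 as reported) over both treatments. A lone array was then assumed to vary like the other groups. Calls between the times in mepenzolate lungs were 1 with no filter, 0 with quantile normalization, 0 with array weights and 1 with only the groups compared. In vehicle lungs they were 7 with quantile normalization, 33 with the intensity trend and 55 with array weights. Over both treatments they were 72 with the filter at the median and 123 with the intensity trend. The labels do not say what the replicate numbers stand for. The deviations of same-numbered arrays correlated at -0.021 to 0.396 over pairs of groups. The highest values were 0.396 for mepenzolate at 25 h with mepenzolate at 7 h, and 0.330 for mepenzolate at 7 h with vehicle at 7 h. What same-numbered arrays share was not tested. With the replicate block the calls were 1 at 25 h, 0 at 7 h, 0 for the difference of effects, 9 between the times in mepenzolate lungs, 17 in vehicle lungs and 73 over both treatments, and no member passed. The causes of these changes were not tested.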
